A study of Mus musculus with 16 samples.

Results

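The small heat shock proteins of muscle were followed through 7 genes: Cryab, Hspb1, Hspb2, Hspb3, Hspb6, Hspb7 and Hspb8. They were chosen by symbol in the platform annotation, and each had exactly 1 probe, so they took 7 of the 25697 probes on the array. RNA came from C2C12, a mouse myoblast line that leaves the cell cycle and forms myotubes when serum is lowered. Cells were kept in growth medium (GM, with 10% fetal bovine serum) or switched to differentiation medium (DM, with 2% horse serum), and their cytoplasmic extracts were incubated for 2 h with beads carrying control IgG or an antibody against MYF5, a muscle-lineage transcription factor. This gave 4 groups of 4 arrays, here called GM IgG, GM MYF5, DM IgG and DM MYF5. All groups are the same line without genetic change, extracts from before precipitation were not analysed here, and no label says how long cells stayed in DM or whether the 4 replicates were separate cultures. The p-values therefore measure the spread between these arrays, which may be technical.

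Small heat shock proteins are ATP-independent chaperones. They share an alpha-crystallin domain, form oligomers, and hold unfolding proteins until ATP-driven chaperones of the Hsp70 class refold them or hand them to degradation. Striated muscle contains many of them, at Z-discs, intermediate filaments and actin filaments, where they bind proteins that contraction unfolds. Some are induced by heat through heat shock factor, and others follow the muscle differentiation programme with little response to heat.

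Upstream sequences are shown for 3 of the genes, since these took opposite courses in the switch to DM: Hspb3 and Hspb7 were not detected on any GM array and were detected on every DM array, while Hspb1 was lower in DM. The windows are the 250 bases before the annotated start in RefSeq on GRCm38.p6, written 5′ to 3′ on the strand of the gene. Entries matched 5 of the 7 genes by symbol (Hspb1, Hspb3, Hspb6, Hspb7 and Hspb8). Capitals mark heat shock element cores (GAANNTTC or TTCNNGAA) and the MEF2 consensus.
Hspb1, chr5:135887669-135887918, plus strand:
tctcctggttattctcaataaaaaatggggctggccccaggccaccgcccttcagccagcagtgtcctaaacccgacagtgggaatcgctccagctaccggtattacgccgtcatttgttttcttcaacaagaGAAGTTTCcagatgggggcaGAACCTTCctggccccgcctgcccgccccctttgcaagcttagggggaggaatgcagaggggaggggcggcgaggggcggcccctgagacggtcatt
Hspb3, chr13:113663677-113663926, minus strand:
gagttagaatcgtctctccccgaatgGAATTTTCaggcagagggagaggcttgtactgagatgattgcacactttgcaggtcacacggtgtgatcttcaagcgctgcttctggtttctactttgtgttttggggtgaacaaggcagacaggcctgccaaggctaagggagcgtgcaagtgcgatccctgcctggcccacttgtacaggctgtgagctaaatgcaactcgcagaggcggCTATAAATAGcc
Hspb7, chr4:141420529-141420778, plus strand:
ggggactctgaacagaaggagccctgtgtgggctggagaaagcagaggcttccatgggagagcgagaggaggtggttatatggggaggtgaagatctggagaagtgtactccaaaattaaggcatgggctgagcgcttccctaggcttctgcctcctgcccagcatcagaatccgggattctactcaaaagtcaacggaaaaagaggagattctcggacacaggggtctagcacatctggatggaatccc

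The heat shock element cores read the same on both strands, as does the E-box CANNTG, the site class of myogenic bHLH factors, and the MEF2 consensus was searched with all its permitted letters, which also cover both strands. Hspb1 held 2 heat shock element cores, starting 117 and 97 bases before the start of transcription, and Hspb3 held 1, starting 224 bases before it. Either core was present in 12.8% of the 32851 RefSeq promoter windows of the same length. The MEF2 match of Hspb3 began 12 bases before the start and contains the TATA box letters TATAAA, so it overlaps another motif. A MEF2 match occurred in 2.92% of windows. Hspb7 held neither core nor MEF2 match. E-boxes occurred in 66.2% of windows, and there were 2 in Hspb1, 2 in Hspb3 and 1 in Hspb7. Of the windows not printed, Hspb8 held 1 E-box and no core, and of the windows before the 2 annotated starts of Hspb6, 1 held a core and neither held an E-box. These matches describe letters in the windows only.

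Arrays had mean signals between 324 and 581, and 46.4% to 50.9% of probes were detected, meaning a detection p-value under 0.05 against the negative control beads of the same array. The values below are log2 signals after background correction and quantile normalization, so each is relative to the other RNAs of its array, and a level is compared only within a probe. A probe was tested when detected on at least 4 of 16 arrays, which kept 13884 probes of 9429 genes. All 7 genes passed, Hspb3 and Hspb7 only through their DM arrays. Adjusted p-values come from limma and were adjusted by Benjamini-Hochberg across the tested probes, and a gene counts as called under 0.05. Exact permutation p-values are two-sided, and the smallest that 4 arrays against 4 can give is 0.0286. Of 10 myoblast and myotube markers, 9 had probes, and their summed raw signal was 4160 to 5394 in GM IgG, 3073 to 5673 in GM MYF5, 85720 to 93678 in DM IgG and 53457 to 69909 in DM MYF5. Desmin, Myod1 and Acta1 were detected on all 16 arrays, and Myf5 itself on 1. The markers of adipocytes (3 on the array) and blood (2) were detected on 0 arrays. Of the 3 endothelial markers, Kdr was detected on 3 GM IgG arrays and on all 4 of each other group, at a raw signal of at most 87.8, and Pecam1 and Cdh5 on 0. The 3 markers each of neurons and of epithelium and liver were detected on at most a few arrays, with summed signals of 168 to 223 and 166 to 224.

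**Figure D1:**
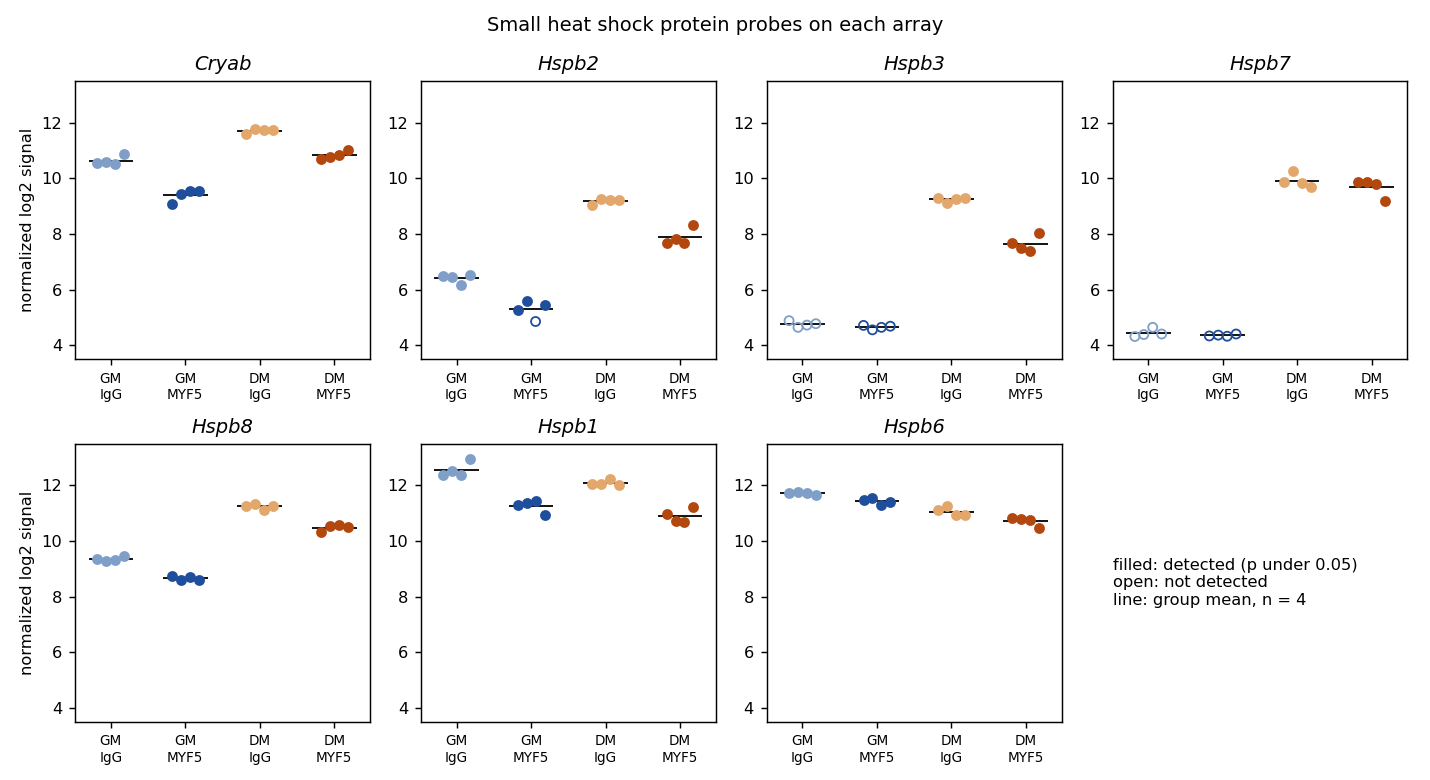
Normalized log2 signal of each small heat shock protein probe on the 16 arrays, by group (GM or DM, IgG or anti-MYF5), with the line at the mean of 4 arrays. Hspb3 and Hspb7 are not detected on any GM array (open points) and stand between 7.38 and 10.25 in DM, whereas Hspb1 and Hspb6 have lower means in DM.

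The comparison of DM with GM asks how the recovered RNA of each gene changes as the cells differentiate. In both precipitates 5 of the 7 genes rose in DM (Hspb7, Hspb3, Hspb2, Hspb8 and Cryab) and Hspb1 and Hspb6 fell. Over all genes, 29.5% were called higher and 34.0% lower in the IgG precipitates, and 28.9% and 32.7% in the anti-MYF5 precipitates. The DM and GM values did not overlap for 25.8% of all genes in the higher and 29.2% in the lower direction with IgG, and for 26.0% and 29.3% with anti-MYF5. Leaving aside Hspb3 and Hspb7, which could pass the detection filter only by being higher in DM, 3 of the other 5 genes rose and 2 fell in each precipitate. The median log2 fold change over all genes was -0.06 in each. The myotube marker sums rose alongside. Raw signals of the fibroblast marker list, in which Dcn and Pdgfra were detected and Thy1 and Postn were not, also summed to 396 to 449 in GM IgG and 2504 to 3973 in DM IgG, and to 317 to 540 in GM MYF5 and 1521 to 2910 in DM MYF5. The 4 smooth and cardiac muscle markers summed to 246 to 290 in GM IgG, 483 to 652 in DM IgG, 231 to 258 in GM MYF5 and 275 to 346 in DM MYF5. Of them, the cardiac myosin gene Myh6 was detected on all 8 DM and 0 GM arrays, Nppa on 1 DM IgG array, and Myh11 and Cnn1 on 0. The part of these marker lists in the result was not tested, and in a bulk culture more cells of a type and more RNA per cell cannot be told apart.

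Hspb7, the cardiovascular small heat shock protein, which binds filamin C and is concentrated in heart and skeletal muscle, had the highest bound of the 7. Its log2 values were 4.31, 4.38, 4.64 and 4.40 in GM IgG and 4.33, 4.36, 4.32 and 4.40 in GM MYF5, with the probe detected on none of these arrays. In DM they were 9.88, 10.25, 9.85 and 9.70 with IgG and 9.87, 9.87, 9.78 and 9.20 with anti-MYF5. All DM values lay far above all GM values, and the GM side is a bound set by the background. With the background correction used here, Hspb7 was at least 32.3-fold higher in DM IgG than in GM IgG. It was at least 27.8-fold higher in DM MYF5 than in GM MYF5. These sizes depended on the background handling. With no background correction the log2 fold change was smaller, at 4.04 with IgG and 3.89 with anti-MYF5. No p-value is given for these bounds, since the probe passed the detection filter only through its DM arrays. For the bound, each GM array contributed either its lowest signal among detected probes or the value of the probe itself, whichever was higher.

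Hspb3, which assembles with Hspb2 into a muscle-specific complex, was also detected in DM alone. Its values were 4.88, 4.64, 4.72 and 4.77 in GM IgG and 4.71, 4.55, 4.64 and 4.68 in GM MYF5, and it was detected on 0 of these 8 arrays. It reached 9.31, 9.12, 9.26 and 9.31 in DM IgG and 7.66, 7.51, 7.38 and 8.02 in DM MYF5. The DM groups did not overlap with the GM groups or with each other. With the background correction used here, the rise was at least 20.3-fold in the IgG precipitates and at least 6.78-fold in the anti-MYF5 precipitates. No p-value is given, for the same reason as for Hspb7. The size again depended on the background handling, with log2 fold changes of 3.19 and 1.84 when no background correction was made.

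Hspb2, the partner of Hspb3 and a binder of the myotonic dystrophy kinase, was faint in GM. In GM IgG it stood at 6.47, 6.46, 6.16 and 6.52 and in GM MYF5 at 5.27, 5.57, 4.85 and 5.45, where it was detected on 3 of 4 arrays. In DM IgG it stood at 9.05, 9.27, 9.23 and 9.22 and in DM MYF5 at 7.69, 7.81, 7.68 and 8.32. The 4 groups were fully separate, in the order DM IgG, DM MYF5, GM IgG, GM MYF5. Hspb2 rose 6.91-fold in IgG precipitates (log2 value 2.79, SE 0.16, adjusted p = 1.8e-12) and 6.02-fold in anti-MYF5 precipitates (2.59, SE 0.16, adjusted p = 6.5e-12), and the raw mean went from 122 ± 10.3 (SD, n = 4) to 650 ± 47.4 with IgG. These sizes depended on the background handling. With no background correction the log2 values were 2.27 with IgG and 1.73 with anti-MYF5.

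Cryab encodes alpha-B-crystallin, a chaperone of desmin filaments that is lost or altered in some myopathies. In the RefSeq annotation of GRCm38.p6 the Hspb2 gene lies within the span annotated for Cryab, and whether either probe detects transcripts of the other was not tested. Cryab stood at 10.56, 10.59, 10.50 and 10.88 in GM IgG and at 9.08, 9.45, 9.54 and 9.55 in GM MYF5. In DM it stood at 11.61, 11.76, 11.75 and 11.74 with IgG and at 10.69, 10.76, 10.83 and 11.03 with anti-MYF5. DM lay above GM in each precipitate, while the ranges of DM MYF5 and GM IgG overlapped. Cryab rose 2.12-fold with IgG (log2 fold change 1.08, SE 0.12, adjusted p = 5.4e-08) and 2.68-fold with anti-MYF5 (1.42, SE 0.12, adjusted p = 7.7e-10).

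Hspb8 pairs with the co-chaperone Bag3 in the chaperone-assisted autophagy of damaged Z-disc proteins. Its values were 9.35, 9.27, 9.32 and 9.46 in GM IgG and 8.73, 8.61, 8.71 and 8.60 in GM MYF5. In DM they were 11.26, 11.34, 11.12 and 11.25 with IgG and 10.33, 10.54, 10.56 and 10.51 with anti-MYF5. No group overlapped another, in the same order as for Hspb2. The gene rose 3.72-fold in IgG precipitates (log2 fold change 1.89, SE 0.09, adjusted p = 1.4e-13) and 3.53-fold in anti-MYF5 precipitates (1.82, SE 0.09, adjusted p = 2.9e-13).

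Hspb1 and Hspb6 went the other way. Hspb1, also known as Hsp25 in the mouse, is the widely expressed stress-induced member that acts on actin filaments when phosphorylated. It stood at 12.39, 12.51, 12.39 and 12.96 in GM IgG and at 12.06, 12.06, 12.23 and 12.01 in DM IgG. With anti-MYF5 it stood at 11.29, 11.37, 11.45 and 10.95 in GM and at 10.96, 10.73, 10.70 and 11.23 in DM. The IgG groups were separate and the anti-MYF5 groups overlapped. Hspb1 fell by 0.47 on the log2 scale with IgG (SE 0.14, adjusted p = 0.0053) and by 0.36 with anti-MYF5 (SE 0.14, adjusted p = 0.029, exact permutation p = 0.0857). The second of these calls ended with cyclic loess scaling (-0.26, adjusted p = 0.15) and without the detection filter (adjusted p = 0.055). It ended too in the z-scores of the deposited series table (-0.21 in z-score units, not log2, adjusted p = 0.082). The call also ended without any 1 of 5 of the 8 arrays (-0.35 to -0.29). Those arrays were GM MYF5 replicates 1, 2 and 3 and DM MYF5 replicates 2 and 3. Its IgG call ended with no scaling between arrays (-0.38, adjusted p = 0.12).

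Hspb6, or Hsp20, is a target of protein kinase A and is best known in smooth and cardiac muscle. It stood at 11.72, 11.78, 11.74 and 11.65 in GM IgG and at 11.10, 11.26, 10.92 and 10.95 in DM IgG. With anti-MYF5 it stood at 11.46, 11.55, 11.31 and 11.42 in GM and at 10.83, 10.79, 10.76 and 10.47 in DM. All 4 groups were separate, in the order GM IgG, GM MYF5, DM IgG, DM MYF5. Hspb6 fell by 0.66 with IgG (SE 0.10, adjusted p = 8.0e-06; adjusted p = 0.051 with no scaling between arrays) and by 0.72 with anti-MYF5 (SE 0.10, adjusted p = 3.1e-06). The probes of other alpha-crystallin genes were not detected on any array: the lens gene Cryaa had raw signals of 50.9 to 74.1 and the sperm tail gene Odf1 51.6 to 67.3. Hspb9 and Hspb11 were not analysed here.

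**Figure D2:**
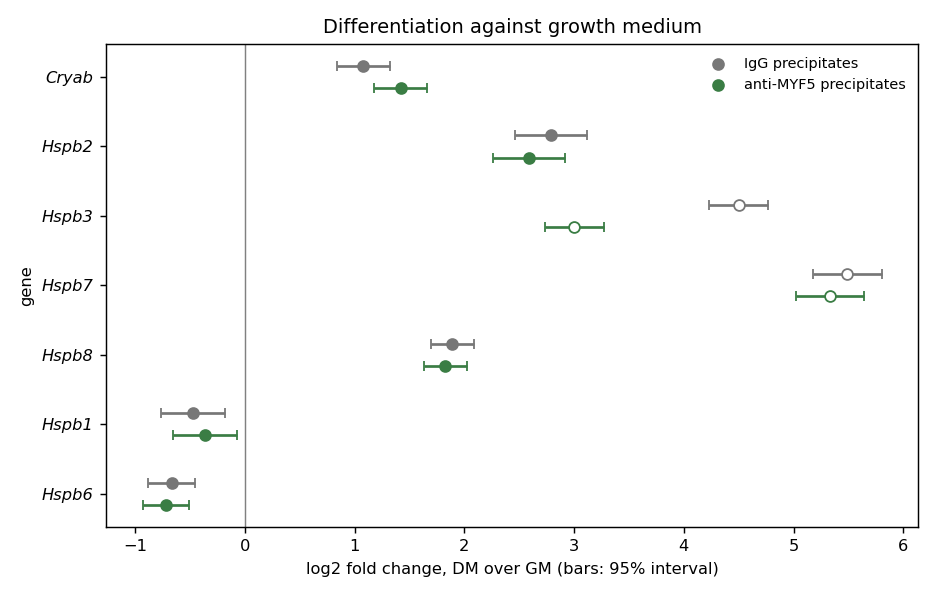
Log2 fold change of DM over GM for each gene in IgG and anti-MYF5 precipitates, with 95% intervals from limma. Open points have a GM side that was not detected. They are drawn at the limma estimate, not at the bound, and their intervals are not read as a test. The genes Cryab, Hspb2, Hspb3, Hspb7 and Hspb8 lie right of 0 in both precipitates, Hspb1 and Hspb6 left of it, and Hspb3 shows the widest gap between precipitates.

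The comparison of anti-MYF5 with IgG asks which RNAs the antibody recovers beyond nonspecific background. With anti-MYF5, 0 of the 7 genes were higher in either medium by limma, and 0 at an unadjusted p under 0.05. In GM 5 fell (Hspb1, Cryab, Hspb2, Hspb8 and Hspb6), while Hspb3 and Hspb7 were below detection in both groups. In DM 6 fell and Hspb7 did not pass the test. Over all genes, 26.3% were called higher and 22.4% lower in GM, and 27.7% and 26.6% in DM. The median log2 fold change of the 7 was -0.68 in GM and -0.89 in DM, beside 0.04 and 0.02 over all genes. The GM median includes Hspb3 and Hspb7, which compare background with background there, so the medians of the media are not directly comparable. Values of the groups did not overlap at the 5 genes in GM and at the 6 in DM, as was so in the lower direction for 18.9% and 25.6% of all genes, and each of these had an exact permutation p of 0.0286.

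Hspb1 was 2.45-fold lower with the antibody in GM (log2 fold change -1.29, SE 0.14, adjusted p = 1.3e-07) and 2.27-fold lower in DM (-1.18, SE 0.14, adjusted p = 5.0e-07). Its raw mean signals were 5880 ± 577 (SD, n = 4) against 2914 ± 698 in GM and 4502 ± 174 against 1961 ± 486 in DM. Cryab was 2.34-fold lower in GM (-1.23, SE 0.12, adjusted p = 2.7e-08) and 1.85-fold lower in DM (-0.89, SE 0.12, adjusted p = 2.0e-06). For both genes every anti-MYF5 array stood below every IgG array of the same medium. Hspb2 was 2.17-fold lower in GM (-1.12, SE 0.16, adjusted p = 6.1e-06) and 2.49-fold lower in DM (-1.32, SE 0.16, adjusted p = 7.9e-07). The size of its GM change, near background, depended on the background handling. It was -0.62 with no background correction and -0.70 at a background offset of 50. Hspb8 was 1.61-fold lower in GM (-0.68, SE 0.09, adjusted p = 3.6e-06) and 1.69-fold lower in DM (-0.76, SE 0.09, adjusted p = 1.0e-06), and its GM call ended with no scaling between arrays (-0.28, adjusted p = 0.25).

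Hspb3 showed the largest difference of the 7 in DM, at 3.04-fold lower with the antibody (log2 fold change -1.61, SE 0.13, adjusted p = 7.9e-09), and stood at percentile 0.2 of all tested probes. Its raw mean signals there were 247 ± 50.9 (SD, n = 4) against 678 ± 87.5. In GM the raw means of 72.7 ± 2.94 and 76.2 ± 5.88 were at background and no fold is given. Hspb6 changed least among the called genes, by -0.29 in GM (SE 0.10, adjusted p = 0.023) and -0.34 in DM (SE 0.10, adjusted p = 0.0075). In GM its raw means were equal to within 1 unit, 3262 ± 798 with anti-MYF5 and 3261 ± 793 with IgG, and its lower normalized value there is relative to the other RNAs of the arrays. With no scaling between arrays it stood at 0.01 in GM (adjusted p = 0.99) and -0.39 in DM (adjusted p = 0.17), and with median scaling at -0.13 (adjusted p = 0.63) and -0.41 (adjusted p = 0.09). The GM call also ended without GM IgG replicate 2 (-0.27, adjusted p = 0.062) or GM MYF5 replicate 3 (-0.25, adjusted p = 0.074).

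Hspb7 differed from its neighbours in DM by missing the threshold, with a log2 fold change of -0.24 (95% interval -0.55 to 0.07, adjusted p = 0.20, exact permutation p = 0.400) and overlapping groups. The interval lies above the values of -0.76 and below that Hspb8, Cryab, Hspb1, Hspb2 and Hspb3 had in DM. It includes the value of -0.34 for Hspb6, which was called. The differences between genes were not tested. In the raw signals Hspb7 had 879 ± 257 with anti-MYF5 and 1056 ± 141 with IgG.

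**Figure D3:**
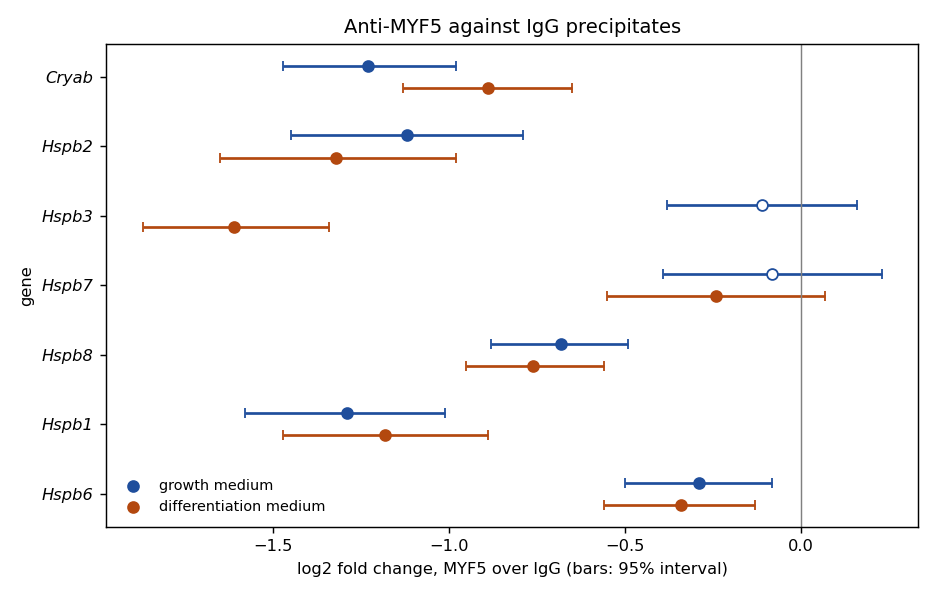
Log2 fold change of anti-MYF5 over IgG for each gene in GM and DM, with 95% intervals from limma; open points mark genes not detected in either group. Cryab, Hspb2, Hspb8, Hspb1 and Hspb6 lie left of 0 in both media, and the interval of Hspb7 spans 0 in both.

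Quantities of the whole array moved with these comparisons. The median log2 fold change of all genes for anti-MYF5 over IgG in GM stood at 0.32 in unscaled data and 0.19 with median scaling, against 0.04 here. Of all genes called in GM, 54.0% were higher with quantile normalization, 73.0% with median scaling and 82.8% with no scaling. The same share in DM was 51.0%, 40.6% and 41.8%, and for DM over GM with IgG it was 46.4%, 60.1% and 68.8%. There the median of all genes stood at 0.19 with no scaling, and for DM over GM with anti-MYF5 at -0.14 with median scaling and -0.15 with none, against -0.06. Relative to those medians under 4 scalings, Hspb1 stood at -0.57 to -0.41 with IgG and -0.43 to -0.27 with anti-MYF5, and Hspb6 at -0.72 to -0.60 and -0.77 to -0.62. Relative to its own median in the same way, the change with anti-MYF5 in GM was -1.42 to -1.33 for Hspb1, -1.27 to -1.15 for Cryab, -1.16 to -1.06 for Hspb2, -0.72 to -0.60 for Hspb8 and -0.38 to -0.31 for Hspb6. The log2 gap between the probes ILMN_2698799 and ILMN_2588055 of Actb, the beta-actin gene, was 6.42 ± 1.53 (SD, n = 4) in GM IgG, 3.94 ± 0.52 in GM MYF5, 4.73 ± 0.81 in DM IgG and 2.61 ± 0.76 in DM MYF5, narrower with anti-MYF5 in both media. With this gap as a covariate, 4 of the genes were called lower in GM and 6 in DM, at -1.46 for Hspb1, -1.41 for Cryab, -1.04 for Hspb2 and -0.78 for Hspb8 in GM, while Hspb6 missed the threshold there (-0.31, adjusted p = 0.091).

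Whether the medium changed the difference between anti-MYF5 and IgG was tested as an interaction, for which 5.78% of all genes were called, 2.48% higher and 3.30% lower in DM than in GM. Of the 7 genes, Hspb3 passed, with a DM minus GM difference of -1.50 on the log2 scale (SE 0.18, adjusted p = 5.2e-05). Its GM value is a comparison of background with background, so this difference restates its DM change. For Cryab the difference was 0.34 (SE 0.16, adjusted p = 0.24). The 95% intervals of the others were -0.29 to 0.52 for Hspb1, -0.67 to 0.27 for Hspb2, -0.35 to 0.25 for Hspb6 and -0.35 to 0.20 for Hspb8. Hspb2 passed in those z-scores (-0.37 in z-score units, adjusted p = 0.014) and with no background correction (-0.54 on the log2 scale, adjusted p = 0.044).

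The wider chaperone network was read from a list of 36 genes for Hsp70, Hsp90, Hsp60 and Hsp40 proteins, co-chaperones and heat shock factors, of which 31 were tested. Hsf1, the main heat shock factor, and the autophagy ligase gene Stub1 were not analysed here. Comparing anti-MYF5 with IgG, 6 were higher and 12 lower in GM, and 3 higher and 14 lower in DM, beside 26.3% higher and 22.4% lower over all genes in GM and 27.7% and 26.6% in DM. In GM the balance turned with scaling, to 5 higher and 4 lower with median scaling and 7 higher and 3 lower with none. These genes had median log2 fold changes of -0.10 and -0.29. Those lowest in GM were Hspa4, an Hsp70-type exchange factor, at -1.19 (SE 0.16), Hsp90aa1, the inducible cytosolic Hsp90, at -1.16 (SE 0.27), and Hspbp1, an Hsp70 exchange factor, at -0.87 (SE 0.13). In DM they were Hspa4 at -1.37 (SE 0.16), Hsph1 (Hsp110) at -0.92 (SE 0.15) and Hsp90aa1 at -0.91 (SE 0.27). Over the 16 arrays raw signals were low for Hspa4 (124.7 to 399.6), Hsp90aa1 (95.7 to 293.4) and Hspbp1 (87.1 to 250.1). The sizes of their changes under other background handling are not given here. The constitutive Hsp70 gene Hspa8 had 0.16 (adjusted p = 0.10) in GM and -0.10 (adjusted p = 0.33) in DM. With the Actb gap as a covariate the calls numbered 4 higher and 5 lower in GM and 2 higher and 8 lower in DM.

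Bag3, the partner of Hspb8, was lower with anti-MYF5 by -0.29 (SE 0.10, adjusted p = 0.024) in GM and -0.80 (SE 0.10, adjusted p = 1.7e-06) in DM, and the medium difference passed the test at -0.51 (SE 0.15, adjusted p = 0.044). In the setting used here it was the only gene of the 31 called for the interaction. That call ended in 5 of 11 other processing settings, with cyclic loess (adjusted p = 0.055), median scaling (0.051), the z-scores (0.11), no filter (0.075) and no intensity trend (0.06). It also ended without any 1 of 11 of the 16 arrays, namely GM IgG replicates 1 and 2, the 4 GM MYF5 replicates, DM IgG replicates 1 and 3 and DM MYF5 replicates 1, 2 and 3 (adjusted p up to 0.1). Bag3 rose in DM with IgG by 0.72 (SE 0.10, adjusted p = 3.6e-06), and with anti-MYF5 stood at 0.21 (adjusted p = 0.091).

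In the switch to DM the network did not move 1 way. Of its 31 tested genes, 12 were higher and 7 lower with IgG, and 9 higher and 10 lower with anti-MYF5, with medians of 0.08 and 0.03, beside 29.5% higher and 34.0% lower over all genes with IgG and 28.9% and 32.7% with anti-MYF5. Hspa1a and Dnajb5 were not detected on any GM array, and without them the counts were 10 and 7 with IgG and 8 and 10 with anti-MYF5. The mitochondrial chaperonins were lower in both precipitates. Hspe1 (Hsp10) changed by -1.70 (SE 0.21) with IgG and -0.93 (SE 0.21) with anti-MYF5, and Hspd1 (Hsp60) by -1.02 (SE 0.15) and -1.11 (SE 0.15). Also lower were the Hsp90 co-chaperone Ptges3, by -1.17 with IgG and -1.02 with anti-MYF5, and Bag4, by -0.98 and -1.08. Hspa2, an Hsp70 best known from testis, was higher by 1.50 (SE 0.14) with IgG and 0.96 (SE 0.14) with anti-MYF5.

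**Figure D4:**
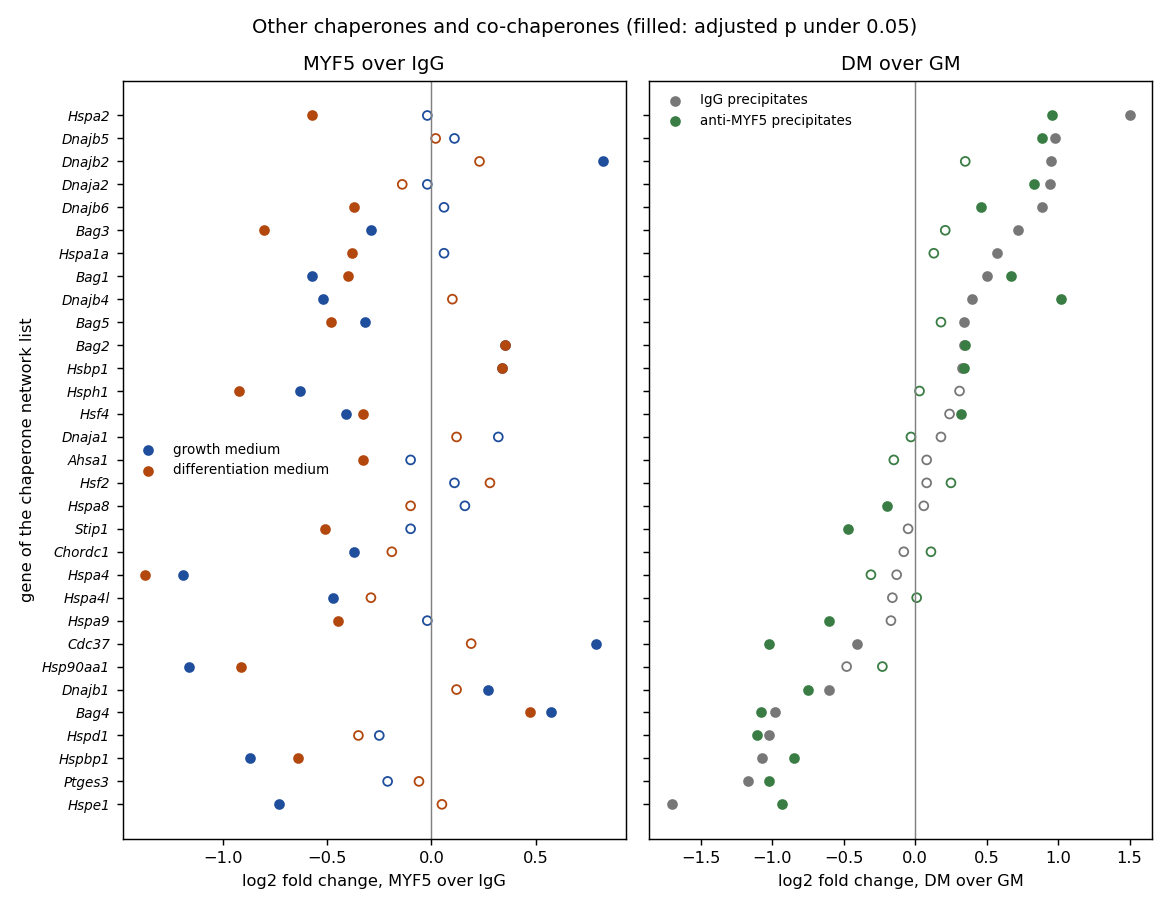
Log2 fold change of the 31 tested genes of the chaperone network list, for anti-MYF5 over IgG in each medium (left) and DM over GM in each precipitate (right), with filled points at adjusted p under 0.05 and genes ordered by DM over GM in IgG. For anti-MYF5 over IgG, Hspa4 and Hsp90aa1 lie lowest in GM, and Hspa4 and Hsph1 in DM. For DM over GM, points lie on both sides of 0, from Hspe1 at -1.70 to Hspa2 at 1.50.

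Proteins that small heat shock proteins are known to hold, with the autophagy adaptors of the Z-disc, were read from a list of 13 genes, of which 10 were tested. The muscle filamin gene Flnc was not analysed here. Actn2 and Synpo2 were not detected on any GM array and could pass the filter only by being higher in DM. Of the other 8, 5 were higher and 2 lower in DM with IgG and 4 and 2 with anti-MYF5, with medians of 0.64 and 0.12. Over all genes those shares were 29.5% and 34.0% with IgG and 28.9% and 32.7% with anti-MYF5. With the background correction used here, Actn2, a Z-disc alpha-actinin, was at least 95.6-fold higher in DM with IgG and at least 34.4-fold with anti-MYF5. Titin (Ttn) rose by 6.14 (SE 0.21) and 5.77 (SE 0.21), the fast-fibre alpha-actinin Actn3 by 6.29 (SE 0.27) and 5.89 (SE 0.27), and desmin (Des) by 1.97 (SE 0.20) and 2.33 (SE 0.20). In GM, Ttn was near background, with raw signals of 67.7 to 100.3, and was detected on 2 of 4 GM MYF5 arrays. Comparing anti-MYF5 with IgG, 26.3% of all genes were called higher and 22.4% lower in GM, and 27.7% and 26.6% in DM. Of the 10 listed genes, 0 were higher and 3 lower in GM, where Actn2 and Synpo2 were at background. In DM 0 were higher and 6 lower (at an unadjusted p under 0.05, 1 was higher in GM and 0 in DM). In GM those were Des at -0.68 (SE 0.20), the intermediate filament gene Vim at -0.67 (SE 0.15) and Ttn at -0.56 (SE 0.21). The groups overlapped for Des (exact permutation p = 0.114) and for Ttn (exact permutation p = 0.200). The lowest in DM were Actn2 at -1.50 (SE 0.15), Actn3 at -0.95 (SE 0.27) and Ttn at -0.94 (SE 0.21), while Des stood at -0.32 (adjusted p = 0.19). For the interaction, Actn2 (-1.49, with its GM side at background) and the autophagy receptor gene Sqstm1 (-0.88, SE 0.22, adjusted p = 0.025) were called. The call of Sqstm1 held in the 11 other processing settings and ended without any 1 of 9 arrays, namely GM IgG replicates 1 and 2, GM MYF5 replicates 1 and 3, DM IgG replicates 3 and 4 and DM MYF5 replicates 1, 2 and 3 (adjusted p up to 0.065).

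Genes with the most similar pattern were found by Pearson correlation of normalized values over the 16 arrays, which share groups and scaling, so that the coefficients mostly describe group means. Nearest to Hspb7 were Camk2b (r = 0.999), Txlnb (0.998) and Myoz2 (0.997), and nearest to Hspb3 were Ckm (0.998), Myl2 (0.998) and Pygm (0.997). Hspb2 and Hspb8 shared Trim54 (0.994 and 0.991) and Lamb3 (0.989 and 0.990), with Dtna (0.991) for Hspb2 and Ndrg2 (0.991) for Hspb8. Cryab was nearest to Aldoa (0.989), Grhpr (0.988) and S100a1 (0.987). The genes lower in DM had other neighbours, Znrd2 (0.975), Capg (0.973) and Gfus (0.972) for Hspb1, and Dazap1 (0.978), Nap1l1 (0.964) and Grem1 (0.962) for Hspb6.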

How the data were processed

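Per the labels' protocols, oligo-dT primed amplification with biotin labelling preceded hybridization. Per the file headers, the deposited table pairs the signal intensity of 25697 probes with their detection p-values, for 16 arrays. GenomeStudio 2011.1 is named in the submitters' processing notes, and the intensities were not normalized between arrays. A second deposited table holds a score per probe, which equalled each array's z-score of log10 signals to within 5.0e-10, with array medians of -0.55 to -0.51. No chip, slide or batch is given in the sources used here.

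Signals were corrected by normal-exponential convolution (controls inferred from the detection p-values, offset 16), quantile normalized and put on the log2 scale with limma 3.58.1 in R 4.3.3. Probes detected at p under 0.05 on at least 4 arrays were tested in 1 model of 4 groups with 12 residual degrees of freedom (lmFit, eBayes with an intensity trend). The number of arrays limits the precision. Symbols came from the platform annotation, updated by Entrez identifier or accession. They named 23978 probes with 1 gene and left 1719 with none. A gene stands by its tested probe with the highest mean. The model was tested on simulated data. From the chaperone and client lists, the 3 called genes with the largest change per comparison were named, with Bag3, Hsf1, Hspa8, Des and Flnc always. Similar genes are the 3 of highest correlation. The members, lists and tests were chosen with earlier results of these data known. Alternatives covered scaling, background, filter, model, replicate block, single arrays and the Actb gap.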

Additional observations from a re-analysis of the deposited data

Results flagged for a closer look

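Among 28 sets of 4 arrays (7 genes in 4 groups), 3 had a value far from the other arrays of its group, and about 1 in 20 such sets is marked by chance. Hspb7 stood at 9.20 on DM MYF5 array 4, against 9.78 to 9.87 on the others. Without that array its change with anti-MYF5 in DM was -0.08 in place of -0.24. Hspb2 stood at 6.16 on GM IgG array 3, against 6.46 to 6.52. Cryab stood at 11.61 on DM IgG array 1, against 11.74 to 11.76.

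The interaction of medium and antibody was called for 4 genes named above, as it was for 5.78% of all genes. The DM minus GM difference was -1.50 for Hspb3, -1.49 for Actn2, -0.88 for Sqstm1 and -0.51 for Bag3. The probes of Hspb3 and Actn2 were not detected in GM, so their differences restate their DM changes. Bag3 was detected on all 16 arrays, but its call ended in 5 of 11 other processing settings and without any 1 of 11 arrays. The call of Sqstm1 ended without any 1 of 9 arrays.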

How the results depend on the processing

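The rise in DM of Hspb2, Hspb8 and Cryab kept its direction and call under all 20 alternatives in each precipitate, and so did the lower recovery of Hspb1, Hspb2 and Cryab with anti-MYF5 in both media. For anti-MYF5 over IgG in GM the number of the 7 genes called was 5, against 3 with no scaling and 4 to 5 without single arrays. For the medium difference it was 1, against 2 in the z-scores, 2 with no background correction and 1 without single arrays. Without single arrays it was 6 in every case for anti-MYF5 over IgG in DM, 7 for DM over GM with IgG and 6 to 7 with anti-MYF5. The DM over GM counts include Hspb3 and Hspb7, which could pass the detection filter only by being higher in DM. For DM over GM in the main setting, 29.5% of all genes were called higher and 34.0% lower with IgG, and 28.9% and 32.7% with anti-MYF5.

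Calls in the chaperone list for anti-MYF5 over IgG in GM numbered 18 in the main setting, 9 with median scaling, 10 with no scaling and 9 with the Actb gap as covariate. In DM they numbered 17, with 11 under no scaling and 10 with the Actb gap. For the medium difference, Bag3 alone was called. The count was 3 with median scaling and 2 in the z-scores, and 1 with cyclic loess or no intensity trend, in each case without Bag3. With Bag3 among them it was 4 with no scaling, 3 with no background correction, 3 at offset 50, 2 when detection on all 4 arrays of a group was required, and 3 with the Actb gap. It was 0 with no filter, where limma gave 9 of 31 at an unadjusted p under 0.05. Leaving out single arrays gave 0 to 6 there, 14 to 17 in GM, 13 to 17 in DM, and 16 to 20 and 16 to 19 for DM over GM with IgG and anti-MYF5. The count of 6 came without GM IgG replicate 4, 3 without DM MYF5 replicate 4 and 2 without DM IgG replicate 2, and it was 0 without GM IgG replicates 1 or 2, any GM MYF5 replicate, DM IgG replicate 3 or DM MYF5 replicates 1, 2 or 3. Of all genes called for the medium difference, 42.9% were higher in DM with quantile normalization, 54.7% with cyclic loess, 8.38% with median scaling and 3.19% with no scaling, and the median of all genes moved from 0.01 to -0.27 and -0.38 in the last pair. All genes called there numbered 545, against 948 in the z-scores, 336 with no filter and 879 with the Actb gap. The causes were not tested.

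Values that changed sign were outside the calls, except Hspb6 in GM with no scaling. With cyclic loess the medium difference was 0.03 for Hspb6 and 0.23 for Hspb7, and Hspb3 (-0.40) and Hspb7 (-0.46) passed in GM although not detected there. Median scaling gave -0.09 and no scaling -0.20 for Hspb1, no scaling -0.09 for Cryab, and the z-scores 0.10 (in z-score units) for Hspb6. Without single arrays it ran from -0.02 to 0.18 for Hspb1, -0.10 to 0.03 for Hspb6 and -0.23 to 0.00 for Hspb7. For anti-MYF5 over IgG in GM, no scaling gave 0.01 for Hspb3 and 0.01 for Hspb6, and the Actb gap 0.06 for Hspb3.

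Arrays of the same replicate number did not all deviate together (correlation of deviations 0.01 to 0.61 between GM groups, 0.02 to 0.42 between DM groups, -0.14 to 0.24 and -0.12 to 0.29 across media). It was over 0.1 for 3 of 4 pairs in GM and 3 of 4 in DM, with the own number as best match in 2 and 3 of them, a hint of shared deviations that the labels do not explain, and the number was not taken as a pairing. With that number as a replicate block, 5, 6, 1, 7 and 7 of the genes were called in the 5 comparisons, as in the main setting. Each count of 7 is for DM over GM and includes Hspb3 and Hspb7, which passed the filter only through their DM arrays. All genes called with the block numbered 4873, 5352, 790, 6181 and 6031 of 9429. For the medium difference 4 chaperone genes were called, Bag3 included. Signals near background limit Hspb3 and Hspb7 in GM, where a change between precipitates was not detectable.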
